A study of Homo sapiens with 16 samples.

Results

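The AP-1 transcription factors and ATF3 are represented here by 8 genes, chosen by name with earlier results of these data known: FOS, FOSB, FOSL1, FOSL2, JUN, JUNB, JUND and ATF3. All 8 were found among the 23597 genes of the RNA table and among the 19201 genes of the ribosome footprint table. The cells were WI-38, a strain of human lung fibroblasts with a limited number of divisions, and every sample came from this strain. Cells labelled young were taken at passage 24, and those labelled senescent at passage 36. All cultures, controls included, went through 24 h without serum and 24 h of recovery in full medium, and the stressed cultures were then held at 44 °C for 2 h and harvested directly. RNA-seq measured the RNA of the cells, and Ribo-seq measured the short mRNA fragments protected by ribosomes. Each assay had 4 groups (young control, young heat shock, senescent control, senescent heat shock) with 2 libraries each, 16 libraries in all. The labels do not say whether the replicates were separate cultures, so p-values here measure the spread between these libraries, which may be technical.

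AP-1 is a dimer of basic leucine zipper (bZIP) proteins that binds short DNA elements in promoters and enhancers. JUN, JUNB and JUND can pair with each other or with FOS, FOSB, FOSL1 or FOSL2, whereas the FOS proteins need a JUN partner. FOS and JUN are immediate early genes whose mRNAs appear within minutes of serum or stress and decay quickly, FOSL1 and FOSL2 are slower members that last in growing and migrating fibroblasts, and ATF3 is a related stress-induced bZIP factor that also pairs with JUN proteins.

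The promoter stretches of 4 members are shown because FOS and FOSB had the largest estimated RNA increases on heat shock of the 8 genes, while JUN and ATF3 carry the same element of the AP-1 and cAMP-response type. The sequences are the 250 bases before the RefSeq start of the gene, written 5′ to 3′ on the gene's strand. Capitals mark matches, on either strand, to the TATA box letters TATAAA, to the AP-1 element TGACTCA or its looser form TGANNTCA (which takes in the cAMP-response element TGACGTCA), and to GAANNTTC or TTCNNGAA, the paired units of a heat shock element.
FOS promoter, GRCh38.p14 chr14:75278578-75278827, + strand: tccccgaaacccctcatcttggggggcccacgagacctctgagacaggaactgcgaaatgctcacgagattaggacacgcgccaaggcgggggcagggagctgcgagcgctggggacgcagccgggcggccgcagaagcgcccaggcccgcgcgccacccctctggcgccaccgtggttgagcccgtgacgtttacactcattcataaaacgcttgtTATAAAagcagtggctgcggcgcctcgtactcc
FOSB promoter, GRCh38.p14 chr19:45467746-45467995, + strand: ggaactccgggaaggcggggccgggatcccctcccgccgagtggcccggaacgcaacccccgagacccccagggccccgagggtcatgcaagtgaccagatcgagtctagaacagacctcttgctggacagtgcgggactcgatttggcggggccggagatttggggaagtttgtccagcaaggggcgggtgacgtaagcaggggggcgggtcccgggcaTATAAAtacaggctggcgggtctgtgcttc
JUN promoter, GRCh38.p14 chr1:58784048-58784297, - strand: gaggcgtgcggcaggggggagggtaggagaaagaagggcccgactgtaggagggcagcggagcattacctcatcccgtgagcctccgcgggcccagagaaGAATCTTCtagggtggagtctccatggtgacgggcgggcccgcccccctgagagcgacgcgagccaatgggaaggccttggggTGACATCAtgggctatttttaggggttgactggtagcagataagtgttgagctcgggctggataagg
ATF3 promoter, GRCh38.p14 chr1:212565157-212565406, + strand: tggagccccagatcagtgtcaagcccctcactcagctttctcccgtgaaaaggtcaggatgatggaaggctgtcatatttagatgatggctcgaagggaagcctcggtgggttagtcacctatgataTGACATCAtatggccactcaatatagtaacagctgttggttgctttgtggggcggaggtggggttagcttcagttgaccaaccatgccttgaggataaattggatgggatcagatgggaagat
FOS and FOSB each hold TATAAA, 33 and 30 bases before the start, and JUNB holds it 31 bases before the start. This element is in 10.7% of the 35116 promoter windows of this length. JUN and ATF3 share TGACATCA, 67 and 123 bases before the start. JUND holds TGACGTCA and TGAGCTCA, 200 and 54 bases before the start, and TGANNTCA is in 10.1% of the windows. JUN has the match GAATCTTC 150 bases before the start, an element with GAANNTTC letters found in 5.78% of the windows. TTCNNGAA is in 6.62% and TGACTCA in 4.2% of the windows, with no match among the members looked up. A promoter entry was matched for 7 of the 8 genes by symbol, with 2 for ATF3, and the first of the ATF3 entries is printed. The second ATF3 entry has no TGANNTCA match and holds TATAAA 230 bases before the start. These matches describe letters and are not evidence of binding.

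FOS and FOSL2 also have an AU-rich nonamer, TTATTTATT, in the 3′ untranslated region, the kind of element through which short-lived mRNAs are targeted for decay. A 30-base stretch of each, ending with the nonamer in capitals, is shown because no other member has this nonamer (GENCODE release 29 transcripts). FOS and FOSL2 carry calls on heat shock below, but so does FOSB, which lacks the nonamer. ATF3 and JUNB, which also lack it, carry calls where the replicate number is a block in the model.
FOS, bases 625 to 654 after the stop codon: acgttttattgtgtttttaatTTATTTATT
FOSL2, bases 3896 to 3925 after the stop codon: aagaaattgacatttattttaTTATTTATT
The FOS untranslated region is 806 bases long with 5 ATTTA pentamers, and 4.72% of regions of like length (within 20%) hold the nonamer. That of FOSL2 is 4864 bases long with 9 pentamers, and 22.4% of regions of like length hold the nonamer.

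Total counts ran from 26434514 to 37126871 per RNA library and from 4581141 to 9104077 per footprint library. HSPA1A, the inducible HSP70 gene used as a check of the heat labels, was at 54.33 to 74.09 TPM in the 4 RNA control libraries and at 8112.69 to 16548.80 TPM in the 4 heat-shocked ones. TPM (transcripts per 1e6) is a level scaled by transcript length and by library. All 8 fibroblast markers were present in all libraries, with a summed RNA level of 9934 to 15139 TPM. Of the epithelial, endothelial and leukocyte markers, KRT19 reached 106.7 TPM and CD68 177.5 TPM, CLDN4 reached 2.73 TPM, and the other 11 stayed under 1 TPM in RNA. The 2 young control footprint libraries were far more alike than any other pair. Their counts differed by 1.75 times the sampling noise (chi-square per degree of freedom), against 16.8 to 37.5 in the other footprint groups. Heat shock calls in footprints and counts of calls between control footprints are therefore also given with the pair summed to 1 sample, a fit in which young control footprints are assumed to vary like the other groups.

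At rest FOSL1 dominated the set. In young control cells FOSL1 RNA was at 260.71 and 299.40 TPM and JUN RNA at 53.27 and 59.30 TPM. Senescent control cells had 207.33 and 325.58 TPM of FOSL1 and 55.75 and 69.29 TPM of JUN. The order after these in young control RNA was JUND, FOSL2 and JUNB, with overlapping libraries, then ATF3, FOS and FOSB, each set apart from the next. In senescent control RNA it was JUND and JUNB, which overlapped, then ATF3 and FOSL2, which overlapped, then FOS and FOSB. FOS was at 1.13 and 1.15 TPM in young controls and at 0.63 and 0.89 TPM in senescent controls. In control footprints of both states JUN came second and JUNB after it, and FOS and FOSB were last with overlapping libraries. FOSB was the lowest member in every group of both assays, between 0.25 and 0.48 TPM in the 4 RNA control libraries.

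On heat shock the order changed below FOSL1, which stayed first in all 4 groups of both assays. In heat-shocked young RNA, FOSL2 and JUN came next with overlapping libraries, and FOS lay between JUND and ATF3 and overlapped both. In heat-shocked senescent RNA, FOS came directly after JUN, set apart from it, and overlapped FOSL2. In footprints of heat-shocked young cells, FOSL2 was second and set apart from both FOSL1 and JUN.

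**Figure D1:**
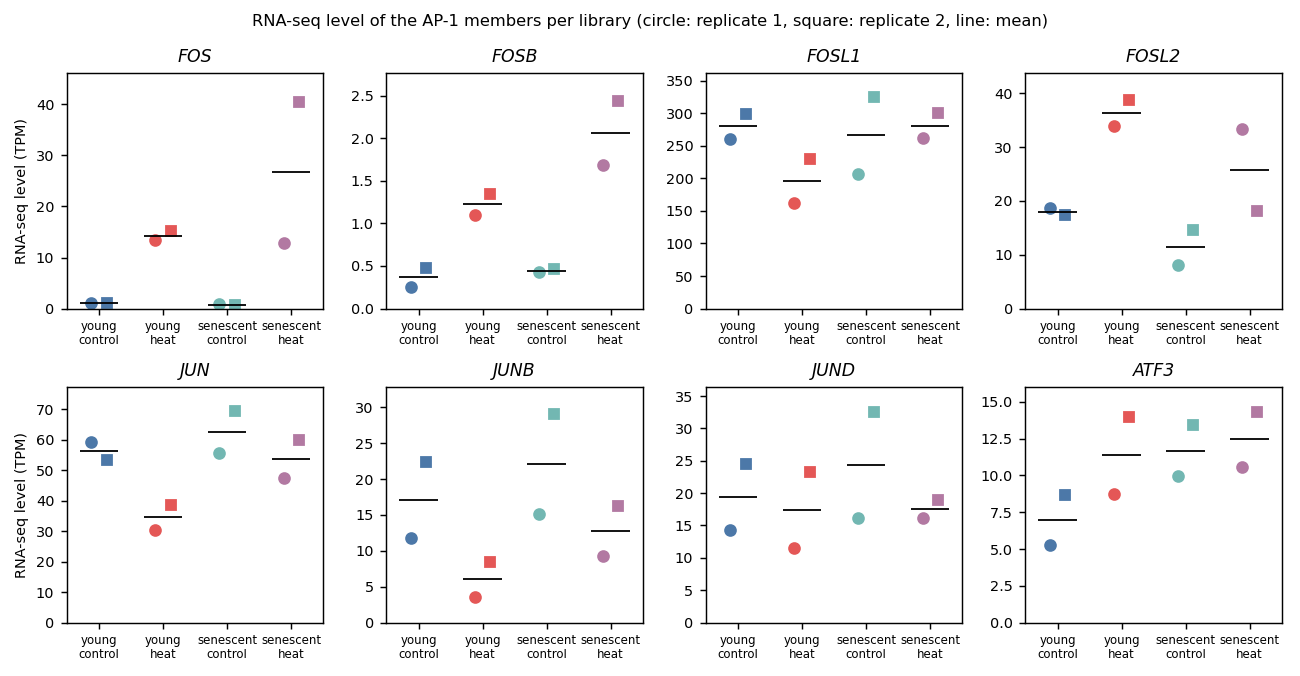
RNA-seq level of each gene in TPM (vertical axis, linear from 0, scaled per gene) in the 4 groups; circles are replicate 1, squares replicate 2 and lines the means of 2 libraries. FOS is near 1 TPM in all controls and between 12.77 and 40.55 TPM after heat shock, where its replicates in senescent cells lie far apart.

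FOS rose on heat shock in RNA of both states. Its RNA went from 1.13 and 1.15 TPM to 13.39 and 15.15 TPM in young cells. In senescent cells it went from 0.63 and 0.89 TPM to 12.77 and 40.55 TPM. In both states every heat-shocked library lay above every control, and senescent heat shock replicate 2 stood apart from the other 3 heat-shocked libraries. The log2 fold change was 3.91 ± 0.56 (SE, n = 2 against 2) in young cells, with an adjusted p of 0.0283 in edgeR's quasi-likelihood test. In senescent cells it was 5.40 ± 0.58, with an adjusted p of 0.0126. Without senescent heat shock replicate 2 the senescent change was 4.13 and still passed. The young call was lost without either young control, either young heat shock or either senescent control library (adjusted p 0.0597 to 0.200), and the senescent call without either senescent control library (0.142 and 0.164). The direction was the same in all of these fits. In bulk samples such as these, a change in all cells and a larger change in some of them cannot be told apart.

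FOS footprints followed the RNA in direction. They were at 0.34 and 0.59 TPM in young controls and at 6.81 and 14.65 TPM after heat shock. In senescent cells they went from 0 and 0.58 TPM to 12.70 and 64.05 TPM. The highest value again belonged to senescent heat shock replicate 2, and no heat-shocked library overlapped a control. The counts were few at rest, 10 in the 2 young controls together and 4 in the 2 senescent ones, against 146 and 601 after heat shock. FOS footprints passed the filter on low counts only through heat-shocked libraries. The ratio of scaled counts was 27.3 in young cells, with a 95% interval for counting error only (exact binomial) of 14.4 to 58.1. In senescent cells it was 133, with an interval of 51.8 to 491. In the edgeR fit the young change of 4.69 ± 1.12 missed the threshold (adjusted p = 0.0650), whereas the senescent change of 7.24 ± 1.53 passed it (adjusted p = 0.0111). The young change passed with the replicate block (4.71, adjusted p = 0.00321) and without either senescent heat shock library (adjusted p 0.0176 and 0.0264). The senescent call was lost without either senescent control library (adjusted p 0.0525 and 0.0655), and its log2 fold change was 5.46 without heat shock replicate 2 and 11.59 without control replicate 2, which held all 4 resting counts. A fitted change with no resting count left depends on the prior count of the fit and is no bound.

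FOSB, a close relative of FOS, stayed at low levels. Its RNA was at 0.25 and 0.48 TPM in young controls and at 1.10 and 1.35 TPM after heat shock. In senescent cells the values were 0.43 and 0.46 TPM at rest and 1.69 and 2.44 TPM after heat shock. Heat-shocked libraries lay above controls in both states, with log2 fold changes of 1.99 ± 0.45 (adjusted p = 0.114) and 2.47 ± 0.45 (adjusted p = 0.0810). With the replicate number as a block in the model both passed, at 2.03 in young cells (adjusted p = 0.00672) and 2.42 in senescent cells (adjusted p = 0.00373). No FOSB footprint was counted in the senescent controls, and 17 were counted in each senescent heat shock library. Against a floor of 3 counts over the group this is at least 10.1-fold higher. FOSB footprints passed the filter on low counts only through the senescent heat shock libraries, the group where they are high. The edgeR call (adjusted p = 0.0289) passed. With the young control pair summed to 1 sample it did not pass (adjusted p = 0.0859). It also missed the threshold when any footprint library other than senescent heat shock replicate 1 was left out (adjusted p 0.0524 to 0.135). In young cells, 5 FOSB footprints at rest and 8 after heat shock gave a change of 1.53 ± 1.05 that was not detectable at this depth (adjusted p = 0.500).

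FOSL2, which encodes FRA-2, rose on heat shock in young footprints. They were at 21.93 and 22.89 TPM in young controls and at 55.32 and 70.22 TPM after heat shock. The log2 fold change was 1.68 ± 0.27 (adjusted p = 0.0266). The call did not pass with the young control pair summed to 1 sample (1.67, adjusted p = 0.319). It was also lost without either young control or either young heat shock library (adjusted p 0.0572 to 0.340). In senescent footprints the values were 16.86 and 18.53 TPM at rest and 19.04 and 35.87 TPM after heat shock, a change of 0.92 ± 0.28 (adjusted p = 0.0766) that passed with the replicate block (0.89, adjusted p = 0.0482). FOSL2 RNA was at 17.31 and 18.65 TPM in young controls and at 33.93 and 38.82 TPM after heat shock. In senescent cells it was at 8.07 and 14.66 TPM at rest and at 18.13 and 33.32 TPM after heat shock. All heat-shocked RNA libraries of a state lay above its controls. The RNA changes, 1.28 ± 0.33 in young (adjusted p = 0.168) and 1.34 ± 0.33 in senescent cells (adjusted p = 0.205), passed with the replicate block (adjusted p = 0.0359 and 0.0378).

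FOSL1, which encodes FRA-1, did not pass in either assay. Heat-shocked young cells had 162.84 and 229.61 TPM of FOSL1 RNA and heat-shocked senescent cells 261.62 and 300.28 TPM. The log2 fold changes on heat shock were -0.23 ± 0.31 (adjusted p = 0.950) in young and 0.29 ± 0.31 (adjusted p = 0.886) in senescent cells. Footprints were at 218.28 and 226.69 TPM in young controls and 80.15 and 147.50 TPM after heat shock, with no overlap. In senescent cells they were at 152.54 and 254.74 TPM at rest and 114.10 and 165.52 TPM after heat shock, with overlap. The footprint changes were -0.84 ± 0.35 (adjusted p = 0.292) and -0.22 ± 0.35 (adjusted p = 0.700).

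**Figure D2:**
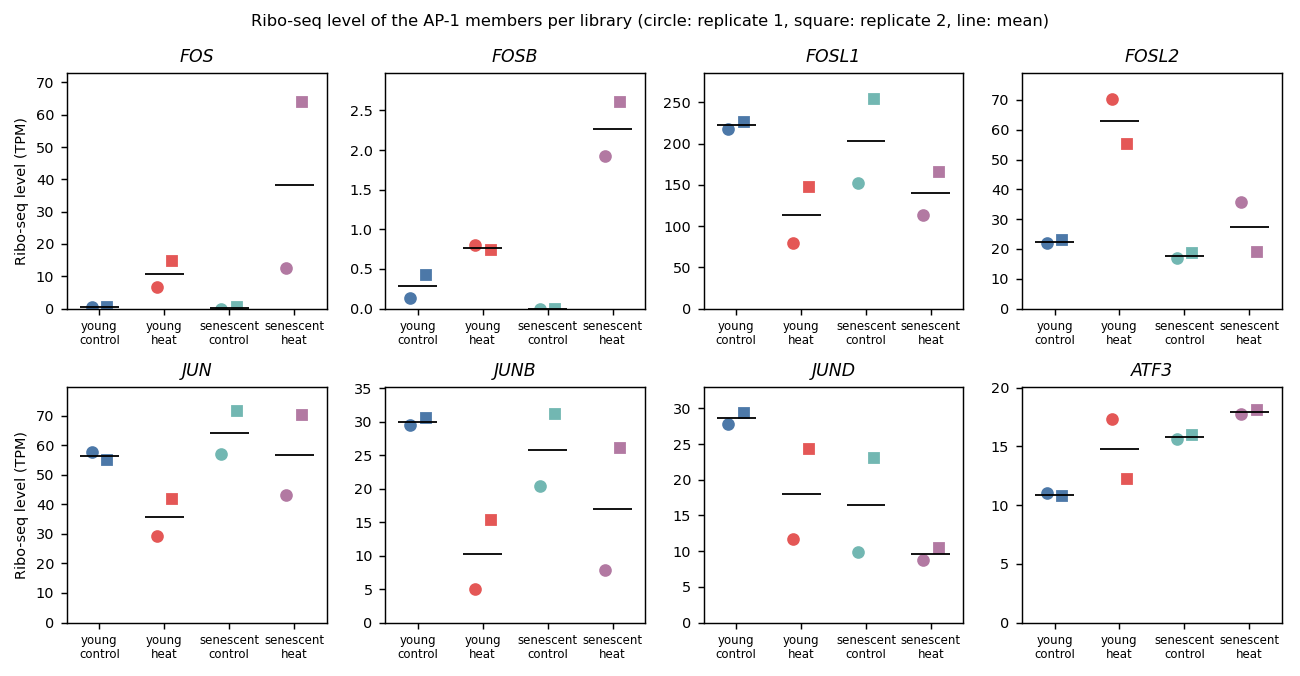
Ribo-seq level of each gene in TPM (vertical axis, linear from 0, scaled per gene) in the 4 groups; circles are replicate 1, squares replicate 2 and lines the means of 2 libraries. FOSL2 is highest in heat-shocked young cells at 55.32 and 70.22 TPM, and FOS in senescent heat shock replicate 2 at 64.05 TPM.

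JUN, the main partner of the FOS proteins and the second most abundant member at rest, showed no called change. Its RNA was at 30.38 and 38.68 TPM in heat-shocked young cells, below both young controls, and at 47.30 and 59.88 TPM in heat-shocked senescent cells, overlapping the senescent controls. The log2 fold changes were -0.44 ± 0.26 (adjusted p = 0.733) in young cells and -0.00109 ± 0.26 in senescent cells (adjusted p = 1.00), where the sign turned under relative log expression scaling (0.02). JUN footprints were at 55.14 and 57.71 TPM in young controls and at 29.39 and 41.72 TPM after heat shock, a change of -0.48 ± 0.31 (adjusted p = 0.490). In senescent cells they were at 57.12 and 71.39 TPM at rest and at 43.11 and 70.18 TPM after heat shock, a change of 0.15 ± 0.31 (adjusted p = 0.768), which was -0.14 when scaled by library size only.

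JUNB, a JUN protein that often opposes JUN at shared elements, was lower after heat shock in young cells. Its RNA was at 11.80 and 22.37 TPM in young controls and at 3.58 and 8.44 TPM after heat shock, with no overlap. The log2 fold change of -1.25 ± 0.58 missed the threshold (adjusted p = 0.566), but with the replicate block it was -1.29 and JUNB fell (adjusted p = 0.00292). In senescent RNA, 15.10 and 29.02 TPM at rest and 9.33 and 16.20 TPM after heat shock overlapped (-0.56 ± 0.57, adjusted p = 0.885). Young footprints were at 29.42 and 30.49 TPM at rest and 4.95 and 15.37 TPM after heat shock (-1.37 ± 0.62, adjusted p = 0.324). Senescent footprints were at 20.42 and 31.12 TPM at rest and 7.88 and 26.00 TPM after heat shock (-0.26 ± 0.61, adjusted p = 0.803).

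JUND, the JUN protein most steadily present in resting cells, did not pass on heat shock in either state or assay. Its RNA ranged from 11.48 to 32.52 TPM over the 8 libraries and its footprints from 8.76 to 29.40 TPM. The RNA changes were 0.10 ± 0.49 in young and -0.26 ± 0.49 in senescent cells, and the young value was -0.19 when scaled by library size only. The footprint changes were -0.47 ± 0.43 and -0.35 ± 0.45. In all 4 RNA groups, replicate 2 exceeded replicate 1 by 0.997 to 1.31 log2 units for JUNB and by 0.482 to 1.11 for JUND. Over all genes this difference between replicates rose with the GC content of the transcript (Spearman correlation 0.554 to 0.637 in the 4 RNA groups). JUNB and JUND transcripts are 64.9% and 69.7% GC, against a median of 49.8% over all genes. FOSL1, FOSB and ATF3, also higher in replicate 2 in all 4 RNA groups, are 60%, 57.7% and 50.8% GC. FOS, FOSL2 and JUN, with both signs among the groups, are 52.6%, 53.3% and 56.7% GC. The part of GC content in the spread of these genes was not tested.

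ATF3 RNA was at 5.28 and 8.65 TPM in young controls and at 8.76 and 13.97 TPM after heat shock. The libraries did not overlap, and the change of 0.97 ± 0.41 (adjusted p = 0.461) passed with the replicate block (0.98, adjusted p = 0.0100). Senescent cells had 9.96 and 13.40 TPM at rest and 10.60 and 14.32 TPM after heat shock, a change of 0.33 ± 0.40 (adjusted p = 0.906) with overlapping libraries. ATF3 footprints were at 10.76 and 11.00 TPM in young controls and at 12.25 and 17.32 TPM after heat shock (0.64 ± 0.39, adjusted p = 0.450). In senescent cells they were at 15.60 and 16.01 TPM at rest and at 17.73 and 18.13 TPM after heat shock (0.53 ± 0.38, adjusted p = 0.388).

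**Figure D3:**
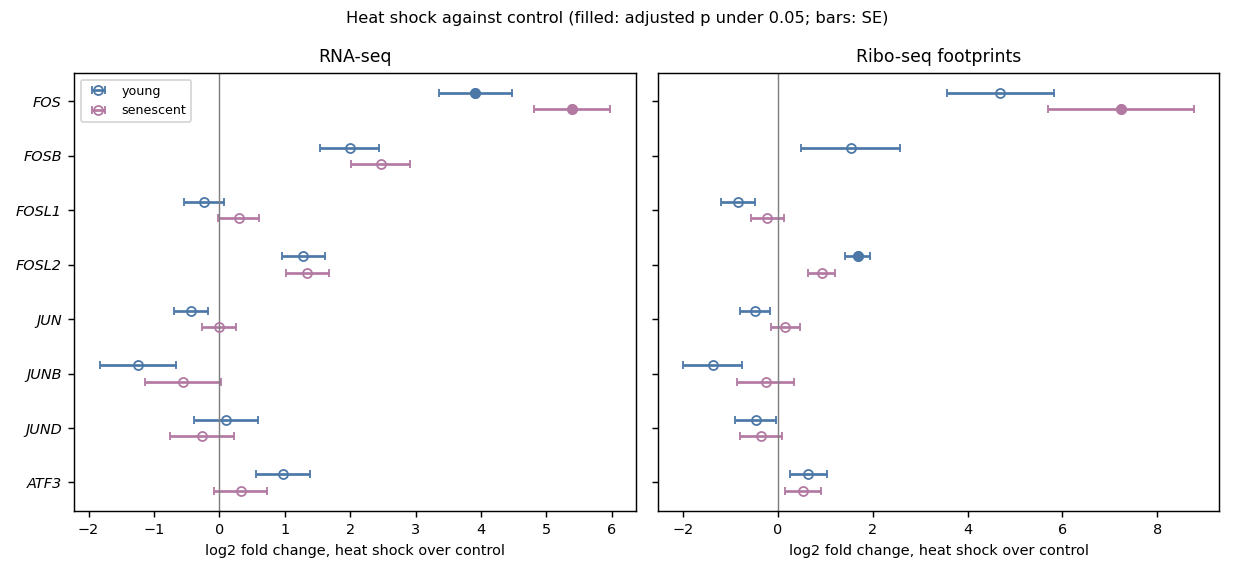
Log2 fold change of heat shock over control (horizontal axis) with its SE for each gene, in RNA-seq (left) and footprints (right). Young and senescent cells are in different colours. Filled points passed an adjusted p of 0.05 in the fit without a replicate block. FOS has the largest fitted changes, 3.91 and 5.40 in RNA; FOSB in senescent footprints has no point because its controls hold no count.

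In RNA, 1 of 8 members (FOS) passed on heat shock in young cells, where 1.14% of the 13177 genes tested passed. The same single member passed in senescent cells, against 0.577% of all genes. With the replicate block 5 of 8 passed in young cells (FOS, FOSB, FOSL2 and ATF3 higher, JUNB lower), against 8.77% of all genes, and 3 of 8 in senescent cells (FOS, FOSB and FOSL2 higher), against 6.28%. In footprints 1 of 8 (FOSL2) passed in young cells, against 1.15% of the 11288 genes tested. In senescent cells 2 of 8 (FOS and FOSB) passed, both higher, against 8.35% of all genes and 3.12% higher. Both were tested only because heat-shocked libraries, where they are high, passed the filter on low counts, so this count is a description. With the young control pair summed, edgeR called 0 of 8 in young cells, against 0.233% of all genes, and FOS alone in senescent cells, against 2.13%. DESeq2 on the unsummed libraries called FOS and FOSL2 in young footprints, against 4% of all genes. In RNA, the heat-shocked and control libraries did not overlap in CPM (counts per 1e6) for 6 of 8 members in young cells, against 40.2% of all genes, and for 3 of 8 in senescent cells, against 31.1%. In footprints this held for 8 of 8 members in young cells, against 59% of all genes, and for 4 of 8 in senescent cells, against 53.8%. The 2 young control footprint libraries were nearly alike, so non-overlap in young footprints says little about separate replicates. The median log2 change of the 8 genes in RNA was 0.54 in young and 0.31 in senescent cells, beside medians of 0.01 and -0.01 over all genes tested. The 8 genes were chosen with earlier results of these data known, so these counts and shares are descriptions.

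The difference between the heat responses of senescent and young cells was tested directly, and no member passed in either assay (edgeR, 0 of 8, with 0 in RNA and 1 in footprints at an unadjusted p under 0.05). No gene of the RNA or footprint table passed at all (0% of each), with 119 (0.903%) and 554 genes at an unadjusted p under 0.05, and DESeq2, which called 3 and 10 genes, also called no member. With the replicate block in RNA, no member passed either, but JUNB (0.73), FOSL1 (0.57) and ATF3 (-0.67) had an unadjusted p under 0.05, against 5.18% of all genes. FOS had the largest estimate in RNA, 1.49 ± 0.81 (adjusted p = 1.00), which was 0.22 without senescent heat shock replicate 2. In footprints the FOS difference was 2.55 ± 1.90 (adjusted p = 0.834), which was 0.78 without that library and 6.90 without senescent control replicate 2, again with no resting count left. The difference for FOSL2 footprints was -0.75 ± 0.39 (adjusted p = 0.834) and that for JUNB footprints 1.11 ± 0.87 (adjusted p = 0.840), which was -0.15 without senescent heat shock replicate 2.

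Between senescent and young control cells edgeR called 0 of 8 members in RNA, with 0 at an unadjusted p under 0.05, where 0.0379% of all genes passed. ATF3 RNA lay higher in both senescent controls than in either young control (0.88 ± 0.41, adjusted p = 0.727), and with the replicate block it passed (0.91, adjusted p = 0.0275), the only member to do so, against 3.72% of all genes. FOSL2 RNA lay lower in both senescent controls (-0.51 ± 0.33, adjusted p = 0.831). In footprints no member and no gene passed (0%), with 885 genes at an unadjusted p under 0.05 in edgeR and 111 genes called by DESeq2, none of them a member. With the young control pair summed, edgeR again called no member and no gene, with 0 members and 298 genes at an unadjusted p under 0.05. The JUND footprint change was -0.75 ± 0.43 (adjusted p = 0.724) and that of ATF3 was 0.48 ± 0.39 (adjusted p = 0.787). These comparisons share the control libraries with the heat comparisons.

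Among heat-shocked cells edgeR called 0 of 8 members in RNA, with 1 at an unadjusted p under 0.05. No gene passed (0%), 1520 had an unadjusted p under 0.05, and DESeq2 called 245 genes, none a member. With the replicate block, 3 of 8 were higher in senescent than in young cells, against 13.7% of all genes: JUNB (1.23, adjusted p = 0.00808), JUN (0.72, adjusted p = 0.0276) and FOSL1 (0.61, adjusted p = 0.0241). Both senescent libraries lay above both young ones for each of these and for FOSB, and below them for FOSL2, 5 of 8 members without overlap against 43.1% of all genes. FOS RNA was 1.05 ± 0.52 log2 units higher (adjusted p = 0.472), which turned to -0.21 without senescent heat shock replicate 2. In footprints no member passed in edgeR or DESeq2, where 0.00886% of all genes passed in edgeR. An unadjusted p under 0.05 was reached by 3 of 8 members, against 13% of all genes. The values were 2.05 ± 0.73 for FOS (adjusted p = 0.334), 0.85 ± 0.31 for JUN (adjusted p = 0.334) and -1.06 ± 0.27 for FOSL2 (adjusted p = 0.233). Without senescent heat shock replicate 1, these 3 passed (adjusted p 0.0304 to 0.0473), in a fit that called 4.26% of all genes. Without replicate 2 the FOS value was 0.27.

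**Figure D4:**
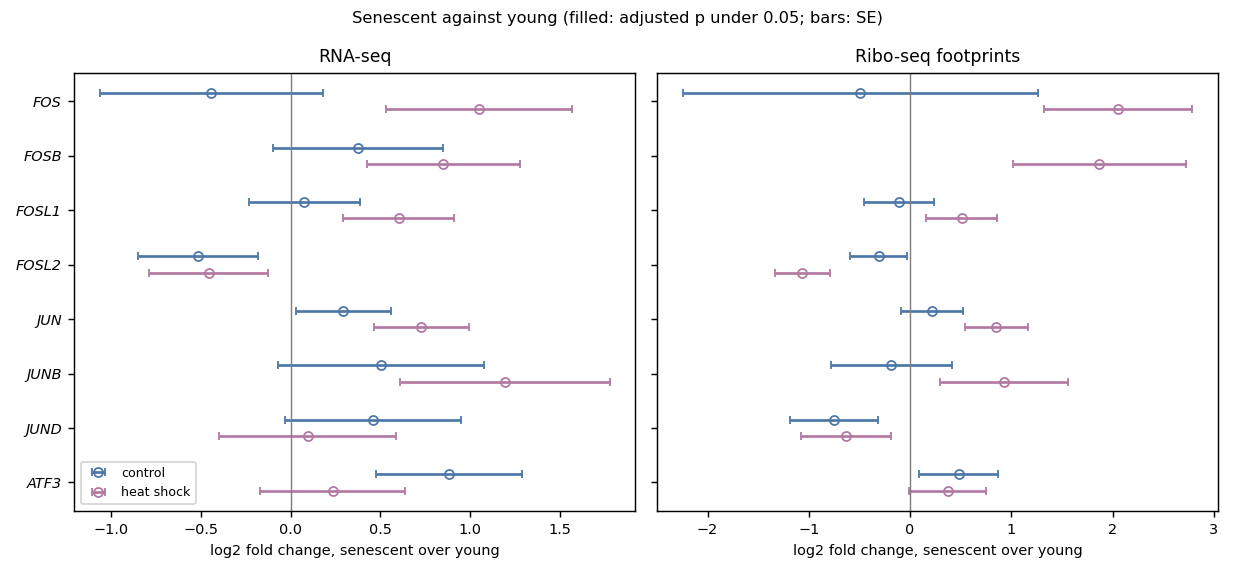
Log2 fold change of senescent over young cells (horizontal axis) with its SE for each gene, in RNA-seq (left) and footprints (right). Control and heat-shocked cells are in different colours. No point is filled because none passed an adjusted p of 0.05 in the fit without a replicate block. In heat-shocked footprints FOS is at 2.05 and FOSL2 at -1.06; FOSB has no point for control footprints because its senescent controls hold no count.

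Translational efficiency is the footprint change less the RNA change of a gene, tested in a single model over both assays and 11166 genes. No member passed in any of the 5 comparisons (edgeR and DESeq2, 0 of 8 each, with at most 1 at an unadjusted p under 0.05). In all, 0.0896% of genes passed for heat in young cells, 2.43% for heat in senescent cells, 0.00896% for the difference between them and for senescent against young controls, and 0% for heat-shocked cells. For FOS the estimate was 0.81 ± 1.30 in young (adjusted p = 1.00) and 1.86 ± 1.64 in senescent cells (adjusted p = 0.565), and leaving out 1 library moved the senescent value from 0.14 (footprint heat shock replicate 2) to 7.75 (footprint control replicate 2, with no resting count left). For FOSL2 it was 0.40 ± 0.46 in young and -0.44 ± 0.47 in senescent cells, and for FOSL1 -0.61 ± 0.49 and -0.54 ± 0.49. The JUND estimate for senescent against young controls was -1.22 ± 0.70 (adjusted p = 1.00), and -1.99 to -0.59 with 1 library left out, at the ends senescent control replicate 2 of footprints and of RNA. In plain levels the mean footprint TPM of JUND was 1.47 times its RNA TPM in young controls and 0.677 times in senescent controls, whereas for JUN this ratio lay between 1.00 and 1.06 in all 4 groups.

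The make-up of the set can be read from length-scaled levels. FOSL1 held 61.3% to 70.2% of the summed TPM of the 8 genes over the 8 RNA libraries and 36.2% to 61.3% over the footprint libraries. The share of FOS in RNA was at most 0.304% in the controls and 3.25% to 8.61% after heat shock. In footprints the FOS share reached 17.0% in senescent heat shock replicate 2 and was 5.25% in replicate 1. FOSL2 took 31.7% of the summed footprint TPM in young heat shock replicate 1 and 4.46% in the senescent control replicate 2. JUN made up 53.0% to 69.4% of the summed RNA of the 3 JUN genes. These shares are descriptions of levels, and a share can fall because another gene of the set rose.

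**Figure D5:**
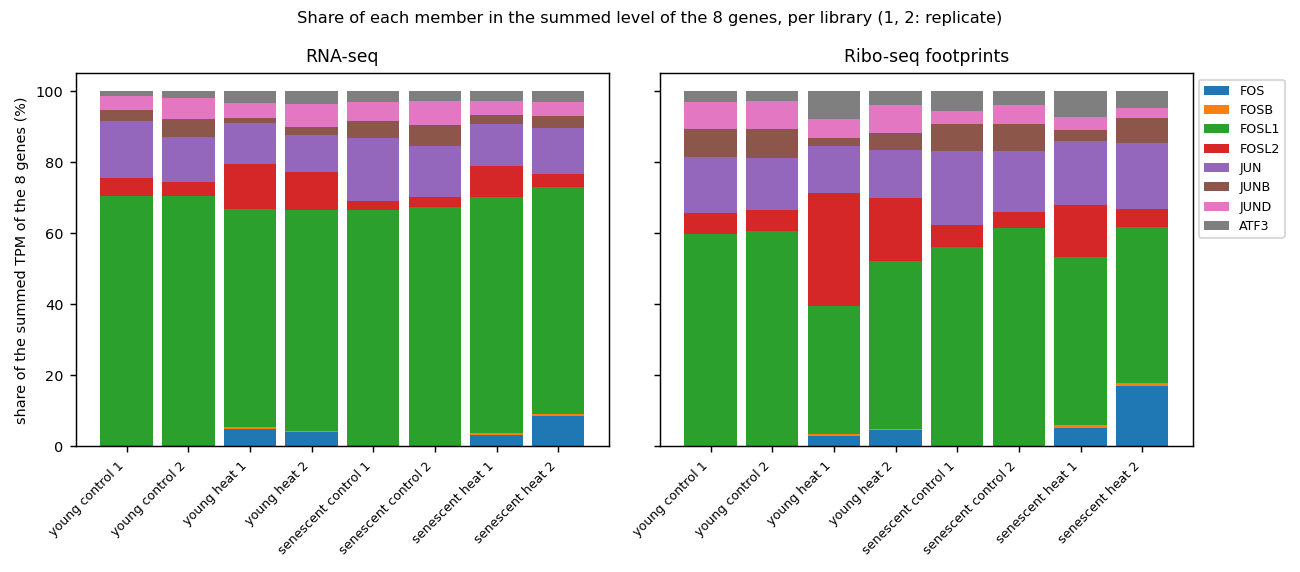
Share of each gene in the summed TPM of the 8 genes (vertical axis, percent) for each library, RNA-seq left and footprints right, bars stacked to 100%. FOSL1 is the largest share in every library, and FOS is visible only in heat-shocked libraries, up to 17.0%.

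Of the genes around AP-1, the 14 MAP kinases and kinase activators that signal to it held no call in edgeR on heat shock in either state or assay (14 tested in RNA, 13 in footprints). Their median log2 change in RNA was -0.04 in young and -0.02 in senescent cells. In footprints it was -0.29 in young cells, with 4 of 13 above 0, and -0.31 in senescent cells, with 0 of 13 above 0, beside medians of -0.0052 and 0.03 over all genes. With the replicate block MAP2K2, which encodes the kinase MEK2, fell in senescent footprints (-1.36, adjusted p = 0.0192). This was 1 of 13, no more than the 8.79% of all genes that were lower in that fit. Of 9 factors that act on the FOS and JUN promoters, none passed in RNA. In footprints, SRF, the serum response factor, fell in young cells (-1.32 ± 0.23, adjusted p = 0.0330), 1 of 9, against 0.381% of all genes lower. The call was lost with the young control pair summed (adjusted p = 0.337). In senescent cells SRF (-1.77 ± 0.23, adjusted p = 0.00554) and ELK1, its ternary complex partner (-2.22 ± 0.50, adjusted p = 0.0311), fell, 2 of 9, against 5.24% of all genes lower. With the pair summed SRF passed (adjusted p = 0.0191) and ELK1 did not (adjusted p = 0.0780). The SRF translational efficiency fell in senescent cells (-1.48 ± 0.33, adjusted p = 0.0349), 1 of 9, against 2.19% of all genes lower. That call was lost with the pair summed.

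Of 14 other bZIP partners, 13 were tested in RNA and 10 in footprints. In young RNA 2 of 13 rose, against 0.668% of all genes: DDIT3, which encodes the stress factor CHOP (2.20 ± 0.34, adjusted p = 0.0321), and ATF4, the central factor of the integrated stress response (1.26 ± 0.20, adjusted p = 0.0321). None passed in senescent RNA, where ATF4 was among the genes that rose with the replicate block (0.62, adjusted p = 0.0238). These were 2 of 13, against 2.66% of all genes higher. In footprints ATF4 and DDIT3 rose in both states, 2 of 10 in each, against 0.771% of all genes higher in young and 3.12% in senescent cells. The ATF4 changes were 3.23 ± 0.30 in young (adjusted p = 0.00206) and 3.76 ± 0.31 in senescent cells (adjusted p = 9.83e-04). The DDIT3 changes were 2.96 ± 0.38 (adjusted p = 0.00764) and 2.60 ± 0.41 (adjusted p = 0.0108). With the young control pair summed, DDIT3 did not pass in young cells (adjusted p = 0.150), and the other 3 calls did (adjusted p 0.00161 to 0.0337). The translational efficiency of ATF4 rose in senescent cells (3.11 ± 0.38, adjusted p = 0.00267), 1 of 10, against 0.233% of all genes higher. With the replicate block it also rose in young cells (1.93, adjusted p = 0.0088), as did that of DDIT3 in senescent cells (1.95, adjusted p = 0.0261), and that of JDP2, which encodes a repressor that pairs with JUN, fell in both states (-1.79, adjusted p = 0.0337, and -1.71, adjusted p = 0.0135). With the block 1 of 10 rose in young and 2 of 10 in senescent cells, against 0.125% and 2.88% of all genes. In each state 1 of 10 fell, against 0.385% of all genes in young and 7.47% in senescent cells.

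Of 10 genes of AU-rich mRNA decay and JUN turnover, ZFP36L2, a decay factor for AU-rich mRNAs, fell in young RNA (-1.57 ± 0.24, adjusted p = 0.0314) and in senescent footprints (-1.56 ± 0.30, adjusted p = 0.0217, and 0.0564 with the young control pair summed). This was 1 of 10 in each, against 0.471% of all genes lower in young RNA and 5.24% in senescent footprints. With the replicate block ZFP36L2 also fell in senescent RNA (-0.83, adjusted p = 0.0485) and in young footprints (-1.29, adjusted p = 0.0369). With the block its relative ZFP36 also fell in RNA of both states (-2.61, adjusted p = 0.00104, and -2.02, adjusted p = 0.00498). In RNA with the block 2 of 10 fell in each state, against 5.13% of all genes in young and 3.62% in senescent cells. In young footprints with the block 1 of 10 fell, against 1.39% of all genes. Of 23 AP-1 target genes, 20 were tested in each assay. LIF, a cytokine, fell in young RNA (-2.89 ± 0.32, adjusted p = 0.00821), 1 of 20, against 0.471% of all genes lower. None passed in senescent RNA without the block. With the block 1 target rose and 2 fell there, LIF among them (-1.61, adjusted p = 0.00677), against 6.28% of all genes called. TNC, which encodes the matrix protein tenascin-C, and DUSP1, a MAP kinase phosphatase, rose in senescent footprints (1.29 ± 0.21, adjusted p = 0.0121, and 1.29 ± 0.32, adjusted p = 0.0458). These were 2 of 20, against 3.12% of all genes higher, and DUSP1 did not pass with the pair summed (adjusted p = 0.0875). None passed in young footprints without the block, with which TNC rose (1.07, adjusted p = 0.0186) and PLAU, a protease gene, fell (-0.97, adjusted p = 0.0434). Each was 1 of 20, against 1.53% of all genes higher and 1.39% lower. The median change of the targets in RNA was 0.07 in young and 0.10 in senescent cells, beside 0.01 and -0.01 over all genes. In footprints it was 0.46 in young cells, with 15 of 20 above 0, beside -0.0052 over all genes. In senescent footprints it was 0.07, with 11 of 20 above 0, beside 0.03 over all genes.

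Genes whose pattern was most like that of a member were found by the Pearson correlation of log2 CPM over the 16 libraries, centred within each assay, among 8147 candidates. The libraries share replicate numbers and heat groups, so these values are descriptions. FOS was most like UBB, a polyubiquitin gene (r = 0.973), and IER5, an immediate early gene (r = 0.962). FOSB was most like UQCC2 (r = 0.947) and PPP1R15A, the stress-induced phosphatase subunit GADD34 (r = 0.939). FOSL2 was most like CEBPD, a bZIP factor (r = 0.943), and PHF8 (r = 0.942). CASC3 was among the nearest genes of FOSL1 (r = 0.927). Those of JUN were STC1 (r = 0.946) and USP20 (r = 0.941), and those of JUNB were DCAF15 (r = 0.956) and HOXB6 (r = 0.942). JUND had TMEM119 (r = 0.929) and NPTX1 (r = 0.911), and ATF3 had CYB5R3 (r = 0.913) and DRAP1 (r = 0.907).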

How the data were processed

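RNA-seq and Ribo-seq libraries of WI-38 cells (8 each, 4 groups of 2 per assay) were used. The submitters' processing notes name STAR, RSEM and Bowtie2 and the build hg19, without versions or roles. The deposited tables hold expected counts and TPM per gene, per the file headers; all counts were whole numbers as deposited. TPM were used for levels, and the expected counts, rounded, for tests.

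Counts were fitted with edgeR 4.0.16 (R 4.3.3): TMM scaling, filterByExpr, a mean per group over the 8 libraries of an assay, the quasi-likelihood test, Benjamini-Hochberg adjustment over all genes tested and a threshold of 0.05. SE are Wald errors. Translational efficiency was fitted over all 16 libraries on genes kept in both assays. Scaling by library size only moved the median log2 heat change of all genes to -0.27 in young and -0.23 in senescent RNA. Changes here are relative to TMM, a shift that TPM levels do not correct. In data simulated for heat in young cells, 10 of 100 genes changed 2-fold were called in RNA, 12 in footprints and 1 in translational efficiency. Of 100 genes changed 4-fold, 68, 59 and 43 were called. A missing call therefore does not show that a gene did not change. Among the genes left unchanged, 9 were called in RNA, 5 in footprints and 6 in translational efficiency, so a call can be false.

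Replicate 2 less replicate 1 correlated across genes between all 6 pairs of RNA groups (r 0.481 to 0.658). The numbers were therefore taken as pairing RNA libraries, though the labels do not say what they mark. The RNA results not marked as having the block, and the plots of log2 fold changes, nevertheless come from fits without it. Those fits leave the shared replicate difference in the spread between libraries. RNA calls depend on this choice. Without and with the block, 150 and 1156 genes were called for heat in young cells. For senescent against young cells under heat shock these were 0 and 1811. Member calls changed by a replicate block are given beside the result; for footprints, where not all pairs correlated, that is an alternative only.

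DESeq2 1.42.0, limma 3.58.1 on log2(TPM + 1), other scalings, no filter and leaving out each library were alternatives. The members and gene lists were chosen with earlier results of these data known. All 8 members, 5 lists with up to 3 called genes each, HSPA1A and the 2 most alike genes per member are named, except for some that are not reported here. Promoter sequences are from RefSeq (GRCh38.p14), not the build of the counts, and untranslated regions from GENCODE 29.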

Additional observations from a re-analysis of the deposited data

How the results depend on the processing

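With 2 libraries a group, leaving out a library leaves few degrees of freedom, and the few resting footprints of FOS and FOSB limit their folds. Of 904 alternative values for the 56 member values named, 835 kept direction and side of the threshold, 16 lost and 29 gained a call, and 24 changed sign; the cause was not tested beyond the fewer samples of some fits. These counts leave out the FOSB call in senescent footprints, which has no fold and whose losses are given above. The calls in RNA, 1 of 8 members for heat in young and 1 for heat in senescent cells, became 3 and 3 without a filter on low counts, 3 and 3 with DESeq2, and 5 and 3 with the replicate block. The block gave 1 call instead of 0 for senescent against young controls and 3 instead of 0 under heat shock. In footprints r was 0.245 to 0.329 between the other 3 groups but -0.038 to -0.0281 with young controls, so the numbers were not taken as pairing, and the block gave 2 instead of 1 for heat in young and 3 instead of 2 for heat in senescent cells. Calls for heat in young footprints were 2 without a filter, with DESeq2 and with only the 4 libraries compared, and 0 with limma on TPM and with the young control pair summed. For heat in senescent footprints they were 3 without a filter, 1 with DESeq2 and 1 with the pair summed. No other member call changed with the block.

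Leaving out each library gave 0 to 1 calls for heat in RNA of either state, 0 to 2 for heat in footprints of either state, and 0 to 3 for senescent against young footprints under heat shock. Some values changed sign. Scaled by library size only, JUND was -0.19 in young RNA and JUN -0.14 in senescent footprints. With limma on TPM they were -0.19 and -0.21. JUN in senescent RNA was 0.0242 with relative log expression scaling and DESeq2, and 0.000288 without a filter. Leave-one-out ranges in young RNA were -0.53 to 0.033 for FOSL1 and -0.52 to 0.59 for JUND. In senescent RNA they were -0.0208 to 0.69 for FOSL1, -0.34 to 0.26 for JUN, -1.18 to 0.0300 for JUNB, -0.70 to 0.37 for JUND and -0.0700 to 0.63 for ATF3. In senescent footprints they were -0.60 to 0.16 for FOSL1, -0.40 to 0.51 for JUN, -1.53 to 0.39 for JUNB and -0.84 to 0.42 for JUND. The FOS difference between heat-shocked senescent and young RNA ran from -0.21 to 1.72, and the JUNB difference of footprint responses from -0.15 to 2.10.

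Counts over all genes moved by more than 1.5 times. For heat in young RNA the 150 genes called became 1156 with the block, 445 with DESeq2, 317 without a filter and 48 with only 4 libraries. For heat in senescent RNA the 76 became 828, 282 and 163, and 128 with limma. For heat in young footprints the 130 became 330, 451, 422 and 362, with 237 by library size only, 80 with limma and 27 with the pair summed. For heat in senescent footprints the 943 became 1667, 1493 and 1528, 270 with only 4 libraries and 247 with the pair summed. For senescent against young the block, DESeq2 and no filter gave 490, 144 and 74 for control RNA (5 as reported), 1811, 245 and 110 for heat-shocked RNA (0), 27, 111 and 118 for control footprints (0) and 18, 128 and 112 for heat-shocked footprints (1). Translational efficiency calls for heat went from 10 to 57 and 47 in young and from 271 to 1156 and 644 in senescent cells with the block and DESeq2.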

Other observations

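The members differed in how alike their replicates were. In RNA, replicate 2 exceeded replicate 1 in all 4 groups for FOSL1 (0.294 to 0.713 log2 units), FOSB (0.142 to 0.911) and ATF3 (0.486 to 0.801), as it did for JUNB and JUND. FOSL2 and JUN had both signs among the 4 groups. FOS had the widest gap of any member in either assay, 1.91 in senescent heat shock RNA and 2.51 in senescent heat shock footprints. In the same 2 senescent heat shock groups FOSL2 went the other way, with replicate 2 lower by -0.628 in RNA and by -0.708 in footprints.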
